A study of Mus musculus with 10 samples.

Results

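The open chromatin around 10 genes of the Krüppel-like factor family, *Klf2*, *Klf3*, *Klf4*, *Klf5*, *Klf6*, *Klf7*, *Klf9*, *Klf10*, *Klf13* and *Klf15*, was described in mouse colon organoids. The genes were taken by name, as 10 of the 21938 protein-coding genes of the annotation (GENCODE release M21, genome build GRCm38), and every peak over a gene or within 20 kb on either side of it was counted. Chromatin accessibility had been measured by Omni-ATAC-seq, in which a transposase cuts open DNA, on sorted live cells of 10 libraries, and a peak list was given for each library. Organoids were grown from colon crypts of wild type (WT) mice or of Vil-cre Ahr fl/fl mice (AHR KO), in which Cre under the villin promoter deletes the aryl hydrocarbon receptor in intestinal epithelial cells. WENR is a medium with Wnt3a, EGF, Noggin and R-spondin, and also holds the p38 inhibitor SB202190, the ALK5 inhibitor A83-01 and nicotinamide. In d4 ENR organoids the medium was changed to one with EGF, Noggin and R-spondin alone for 4 days, so the media differ in more than Wnt3a. There were 2 WT WENR, 3 AHR KO WENR, 3 WT d4 ENR and 2 AHR KO d4 ENR libraries. The labels do not say whether these came from separate mice or organoid lines, so the p-values measure the spread between libraries, which may be technical.

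Krüppel-like factors are transcription factors with zinc fingers at the C-terminal end that bind GC-rich elements and CACCC boxes, the same kind of site that the related SP factors bind. Some members mainly activate and others recruit repressors, and several of them compete for the same elements. In the intestinal epithelium KLF5 is known from the proliferating crypt and KLF4 from differentiated cells, goblet cells of the colon among them.

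Depth ranged from 30354729 to 49126792 fragments per library, and 33433 to 65308 peaks were listed. The share of all coverage that lay in peaks was 63.0% to 68.6% in the 5 WENR libraries. It was 14.1%, 24.4% and 30.9% in WT d4 ENR and 33.8% and 44.2% in AHR KO d4 ENR, so that this measure of library quality moved with both medium and genotype. Mean fragment length also differed, at 235 to 255 bp in WENR, 156 to 200 bp in WT d4 ENR and 202 and 221 bp in AHR KO d4 ENR. Of 8 epithelial marker genes, 7 had a peak over the transcription start in all 10 libraries and *Krt20* in 1. None of 4 blood and 2 endothelial genes had one in any library. Of 3 stromal genes, *Col1a1* and *Pdgfra* had one in all 10 libraries and *Dcn* in none. Whether the AHR KO libraries lack the deleted part of *Ahr* was not checked here.

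The sequences below show the kinds of element that the results turn on. They are windows of GRCm38 on the plus strand around the centre of the bases shared by all libraries with a peak at that site, and 2 promoter stretches from RefSeq's promoters for GRCm38.p6 that end just before the transcription start. Capitals mark matches on either strand to 5 motifs. The CACCC box was searched as CACACCC. The GC box was searched as GGGCGG. The element bound by AHR with its partner ARNT was searched as TNGCGTG. For TEAD factors the letters were ACATTCC, with G also allowed as the first letter. For AP-1 they were TGACTCA, with G also allowed as the middle letter. The first pair are the promoters of *Klf4*, with 4 GC boxes that overlap in part, and of *Klf15*, with 1.
Klf4 promoter, chr4:55532476-55532725, minus strand: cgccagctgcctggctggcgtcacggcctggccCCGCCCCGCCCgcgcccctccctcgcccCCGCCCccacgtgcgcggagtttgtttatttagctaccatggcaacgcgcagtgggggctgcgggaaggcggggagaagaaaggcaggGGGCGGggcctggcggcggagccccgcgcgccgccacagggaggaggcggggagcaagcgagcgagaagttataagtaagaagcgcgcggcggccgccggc
Klf15 promoter, chr6:90462326-90462575, plus strand: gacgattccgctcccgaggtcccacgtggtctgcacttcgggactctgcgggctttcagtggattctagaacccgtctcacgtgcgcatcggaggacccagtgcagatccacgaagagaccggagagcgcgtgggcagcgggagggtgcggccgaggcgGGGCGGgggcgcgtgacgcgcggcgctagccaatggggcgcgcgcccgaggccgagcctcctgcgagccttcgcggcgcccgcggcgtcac
The next 3 are sites with a peak in every WENR and no d4 ENR library.
Klf9 site 19.2 kb upstream, chr19:23121881-23122180: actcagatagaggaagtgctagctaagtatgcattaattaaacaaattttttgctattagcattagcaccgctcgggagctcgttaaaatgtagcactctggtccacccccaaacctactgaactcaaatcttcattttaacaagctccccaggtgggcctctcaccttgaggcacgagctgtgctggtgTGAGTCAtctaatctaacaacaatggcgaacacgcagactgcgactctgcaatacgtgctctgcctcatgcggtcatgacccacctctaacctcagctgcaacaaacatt
Klf7 site 24.0 kb into the gene, chr1:64098151-64098450: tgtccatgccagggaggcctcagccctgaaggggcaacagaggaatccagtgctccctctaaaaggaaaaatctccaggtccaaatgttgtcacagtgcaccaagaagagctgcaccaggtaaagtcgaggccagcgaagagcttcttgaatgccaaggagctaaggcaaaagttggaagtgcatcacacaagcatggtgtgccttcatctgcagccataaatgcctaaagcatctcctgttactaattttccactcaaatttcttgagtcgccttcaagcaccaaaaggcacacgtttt
Klf3 site 47.2 kb from the start, chr5:64849903-64850202: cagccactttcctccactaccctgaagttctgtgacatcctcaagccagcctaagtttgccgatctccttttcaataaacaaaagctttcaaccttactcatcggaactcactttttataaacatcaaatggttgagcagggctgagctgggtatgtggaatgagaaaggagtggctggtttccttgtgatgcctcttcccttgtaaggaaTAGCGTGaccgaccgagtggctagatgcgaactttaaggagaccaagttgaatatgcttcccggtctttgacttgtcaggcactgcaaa
The last 3 are the site called in AHR KO but not WT libraries in d4 ENR, a *Klf2* site whose enrichment was lower in d4 ENR, and a *Klf4* site whose fold enrichment fell in d4 ENR.
Klf6 site 14.1 kb from the start, chr13:5874742-5875041: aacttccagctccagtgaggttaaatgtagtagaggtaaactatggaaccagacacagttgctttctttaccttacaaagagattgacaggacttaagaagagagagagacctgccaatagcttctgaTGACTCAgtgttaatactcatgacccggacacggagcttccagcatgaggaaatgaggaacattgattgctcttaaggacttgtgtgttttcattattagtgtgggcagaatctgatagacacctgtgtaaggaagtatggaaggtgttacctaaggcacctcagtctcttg
Klf2 site 7.9 kb upstream, chr8:72310929-72311228: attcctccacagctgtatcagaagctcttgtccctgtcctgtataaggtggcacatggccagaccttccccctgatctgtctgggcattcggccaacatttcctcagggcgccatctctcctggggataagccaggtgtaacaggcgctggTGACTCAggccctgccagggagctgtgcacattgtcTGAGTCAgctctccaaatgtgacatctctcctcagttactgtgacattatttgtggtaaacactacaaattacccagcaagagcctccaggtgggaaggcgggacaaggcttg
Klf4 site 9.1 kb upstream, chr4:55541466-55541765: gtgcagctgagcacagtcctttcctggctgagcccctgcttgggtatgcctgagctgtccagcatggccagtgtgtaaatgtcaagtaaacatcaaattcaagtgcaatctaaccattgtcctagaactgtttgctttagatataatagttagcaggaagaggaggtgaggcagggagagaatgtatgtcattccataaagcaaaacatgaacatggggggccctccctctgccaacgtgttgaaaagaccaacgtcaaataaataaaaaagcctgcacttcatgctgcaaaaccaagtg
The *Klf2* window holds 2 AP-1 matches.

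Each motif was counted at the *Klf* sites beside its share of all sites. Over the 81 sites around the 10 genes, the 300-base windows held the CACCC box at 10 (12.3%, against 11.6% of all 85680 sites), the GC box at 14 (17.3% against 17.0%), the AHR:ARNT letters at 3 (3.70% against 3.81%), the TEAD letters at 10 (12.3% against 10.5%) and the AP-1 letters at 11 (13.6% against 17.4%). The AHR:ARNT letters were at the *Klf3* sites 23.2 and 47.2 kb from the start and at the *Klf5* site 2.6 kb upstream. RefSeq promoters were given for 8 of the 10 genes (not for *Klf5* and *Klf10*), and 7 of these 8 held a GC box (*Klf9* did not) against 35.7% of 32851 promoters. No CACCC box, TEAD or AP-1 letters were in these 8 promoters, and the AHR:ARNT letters were in 1, that of *Klf6*. A match says only that the letters are there.

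The 10 genes lay in regions with many peaks. Merging the peaks of all libraries gave 81 sites in their windows, from 14 at *Klf3* and 12 at *Klf13* to 2 at *Klf15*. Of these, 25 lay in introns, 23 downstream of the gene, 17 upstream, 10 in exons and 6 at promoters. Averaged over libraries, peaks covered 21.9% of the *Klf5* window, 20.4% of that of *Klf6*, 19.4% of that of *Klf9* and 16.5% of that of *Klf3*, which put these 4 genes at percentiles 99.5, 99.2, 99.0 and 97.7 of the 18477 genes with a peak in the window. *Klf2* (6.0%, percentile 62.3), *Klf7* (5.2%, percentile 55.2) and *Klf15* (2.9%, percentile 33.0) were covered less. Other protein-coding genes share part of the windows of *Klf2* (*Eps15l1*, *Gm10282*), *Klf13* (*E030018B13Rik*) and *Klf15* (*Aldh1l1*), and peaks there cannot be assigned to one gene.

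All 10 transcription starts had a peak in every library. The merged start site was widest at *Klf6* (5494 bp, chr13:5859024-5864517), *Klf4* (3884 bp, chr4:55529690-55533573), *Klf13* (3259 bp) and *Klf9* (3213 bp), and narrowest at *Klf7* (1565 bp), against a median of 1526 bp over 11629 start sites called in all libraries. The *Klf6* and *Klf4* sites stood at percentiles 99.8 and 97.5 in width. Both reach from the promoter into the gene. At *Klf6* the start site had a mean covered length of 4254 bp in WT WENR, 4140 bp in AHR KO WENR, 2349 bp in WT d4 ENR and 3556 bp in AHR KO d4 ENR. At *Klf4* these means were 3808, 3642, 2295 and 3523 bp. At *Klf5* they were 1240, 1195, 1087 and 1458 bp.

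The first comparison asks what the change from WENR to d4 ENR did to the chromatin around these genes. With the genotypes averaged, fewer bases were covered in d4 ENR at every one of them. In AHR KO alone the *Klf2* mean was 2667.5 bp in d4 ENR and 2650.3 bp in WENR. The largest differences on a log2 scale were at *Klf7*, *Klf15*, *Klf5* and *Klf13*. Summed over the 10 genes, peaks covered 95013 to 107943 bp in the WENR libraries, 42903, 51557 and 65799 bp in WT d4 ENR and 72370 and 74352 bp in AHR KO d4 ENR. The values below are bases of the gene window that lie in peaks.

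Among the activators, *Klf5*, the factor of proliferating crypt cells, was covered over 15858 and 16354 bp in WT WENR and 16189, 17888 and 17485 bp in AHR KO WENR. It was covered over 4135, 6611 and 9011 bp in WT d4 ENR and 9771 and 9957 bp in AHR KO d4 ENR. All d4 ENR libraries lay below all WENR libraries, and within d4 ENR the AHR KO values were higher than the 3 WT values. *Klf4*, the factor of differentiated and goblet cells, had 7376 and 9259 bp in WT WENR and 6852, 7744 and 9322 bp in AHR KO WENR. In WT d4 ENR it had 3566, 4257 and 6048 bp, against 6012 and 6142 bp in AHR KO d4 ENR. The media did not overlap, but in d4 ENR the highest WT library lay among the AHR KO libraries. *Klf6*, a zinc finger factor widely induced by injury and serum, had 14135 and 12299 bp in WT WENR and 9298, 11100 and 12463 bp in AHR KO WENR, against 5950, 6935 and 9625 bp in WT d4 ENR and 9134 and 9033 bp in AHR KO d4 ENR. Here the third WT d4 ENR library was above the lowest WENR library.

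*Klf7*, known from neurons and fat cell precursors, had 9617 and 9918 bp in WT WENR and 8684, 10255 and 9632 bp in AHR KO WENR. It had 2875, 3914 and 4578 bp in WT d4 ENR and 4257 and 4817 bp in AHR KO d4 ENR. The highest d4 ENR library had 4817 bp and the lowest WENR library 8684 bp. *Klf2*, known from endothelium and resting T cells, differed least among the activators, with 3723 and 2624 bp in WT WENR, 2678, 2594 and 2679 bp in AHR KO WENR, 1403, 1982 and 2491 bp in WT d4 ENR and 2414 and 2921 bp in AHR KO d4 ENR. Its media overlapped.

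Among the repressors, *Klf3*, whose protein recruits CtBP, had 13875 and 15044 bp in WT WENR and 12948, 15529 and 14589 bp in AHR KO WENR. In WT d4 ENR it had 4266, 7590 and 7688 bp, against 11259 and 11809 bp in AHR KO d4 ENR. Its 4 groups of values were ordered without overlap between media and, within d4 ENR, between genotypes. *Klf9*, *Klf10* and *Klf13* encode factors that recruit SIN3A. *Klf13*, known from T lymphocytes, had 17699 and 17716 bp in WT WENR and 14969, 14338 and 17976 bp in AHR KO WENR, against 6607, 6629 and 8894 bp in WT d4 ENR and 9402 and 10088 bp in AHR KO d4 ENR. *Klf9*, a target of glucocorticoid and thyroid hormone, had 16430 and 14661 bp in WT WENR and 14889, 14990 and 15133 bp in AHR KO WENR, against 9536, 9266 and 10973 bp in WT d4 ENR and 12348 and 11534 bp in AHR KO d4 ENR. Both also separated by medium and, in d4 ENR, by genotype.

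*Klf10*, an early response gene of TGF-beta, had 6258 and 6478 bp in WT WENR and 6355, 6418 and 6180 bp in AHR KO WENR. It had 4266, 4194 and 5517 bp in WT d4 ENR, and 6351 and 6254 bp in AHR KO d4 ENR. Only its WT d4 ENR libraries were low, and the AHR KO d4 ENR libraries lay among the WENR libraries. *Klf15*, known from the control of fasting metabolism in liver and muscle, had few covered bases throughout, with 1639 and 2526 bp in WT WENR, 2151, 1968 and 2484 bp in AHR KO WENR, 299, 179 and 974 bp in WT d4 ENR and 1422 and 1797 bp in AHR KO d4 ENR. The 3 WT d4 ENR libraries were the lowest.

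**Figure D1:**
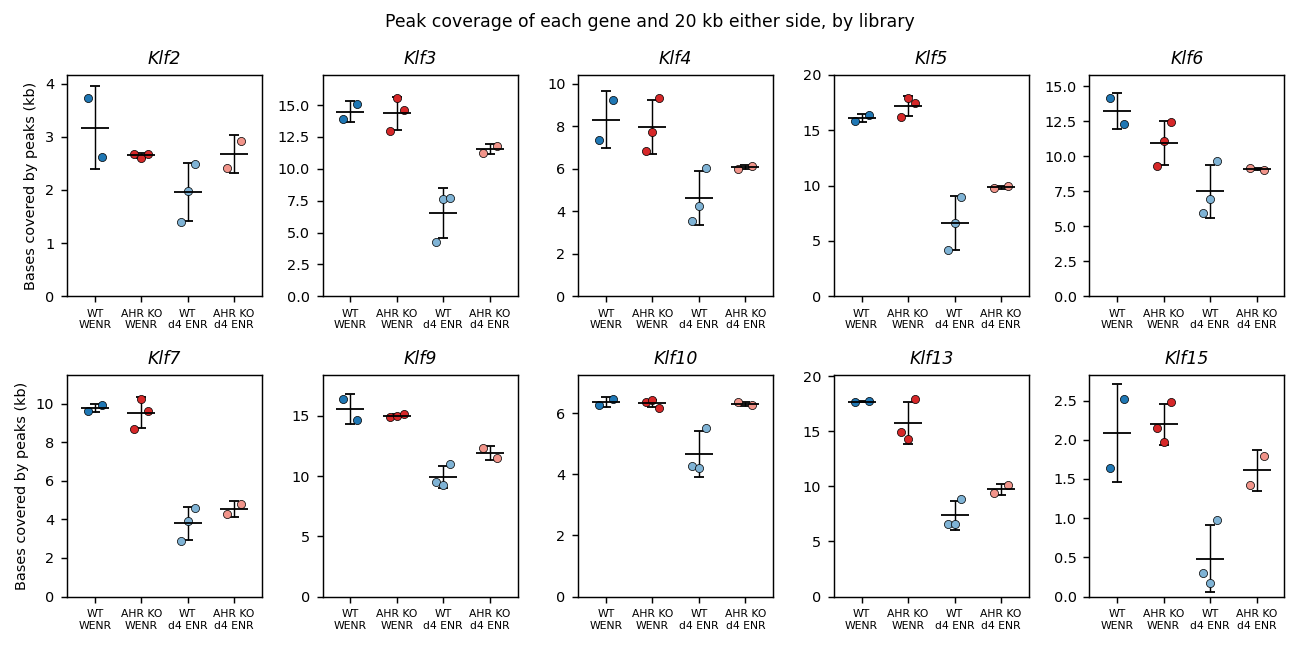
Bases covered by peaks (kb, linear axis from 0, scaled per gene) over each gene with 20 kb on either side, with 1 point per library and the mean and SD of each group as bars. The d4 ENR points lie below all WENR points for 6 genes, and the WT d4 ENR points are the lowest group mean for all 10.

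The medium was tested with limma on log2(covered bases + 200 bp), fitted on all 18477 genes with the p-values adjusted over all of them (Benjamini-Hochberg). With the genotypes averaged, 9 of the 10 genes fell in d4 ENR, against a background of 70.7% of all genes tested. The difference was -1.19 ± 0.12 (SE) at *Klf7*, -1.15 ± 0.30 at *Klf15*, -1.06 ± 0.18 at *Klf5*, -0.97 ± 0.11 at *Klf13* and -0.74 ± 0.16 at *Klf3*. It was smaller at *Klf4* (-0.61 ± 0.15), *Klf6* (-0.54 ± 0.14), *Klf9* (-0.48 ± 0.08) and *Klf10* (-0.22 ± 0.09). The adjusted p ranged from 0.000154 at *Klf7* to 0.0448 at *Klf10*. At *Klf2* the difference of -0.33 ± 0.16 did not pass (adjusted p = 0.0888). All 5 d4 ENR libraries lay below all 5 WENR libraries at 6 genes (*Klf3*, *Klf4*, *Klf5*, *Klf7*, *Klf9*, *Klf13*), where the background is 54.7% of genes. By the exact permutation test of the libraries within genotypes p was 0.02, the smallest it can give, at 8 genes, 0.1 at *Klf10* and 0.18 at *Klf2*. Of all genes, 59.3% were called lower by that test.

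The median difference was -0.67 over the 10 genes and -0.52 over all genes tested. With each library centred on its median gene, 4 of the 10 passed, and of all genes 22.0% were called higher and 19.1% lower, against 1.22% and 70.7% without centring. *Klf7* (-0.64 ± 0.07), *Klf5* (-0.51 ± 0.10) and *Klf13* (-0.42 ± 0.06) were lower than the median gene in d4 ENR and *Klf10* was higher (0.32 ± 0.07, limma adjusted p = 0.00455). *Klf2*, *Klf6* and *Klf9* turned from negative to positive differences (0.22, 0.01 and 0.07) that did not pass. The call at *Klf10* without centring did not pass when any 1 of 9 libraries was left out (adjusted p 0.0583 to 0.115) and passed without WT d4 ENR 3. Every d4 ENR library had a lower share of coverage in peaks than every WENR library. The part of that share in the differences between media was not tested beyond the centring. In bulk samples a site open in fewer cells and a site less open in each cell cannot be told apart.

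**Figure D2:**
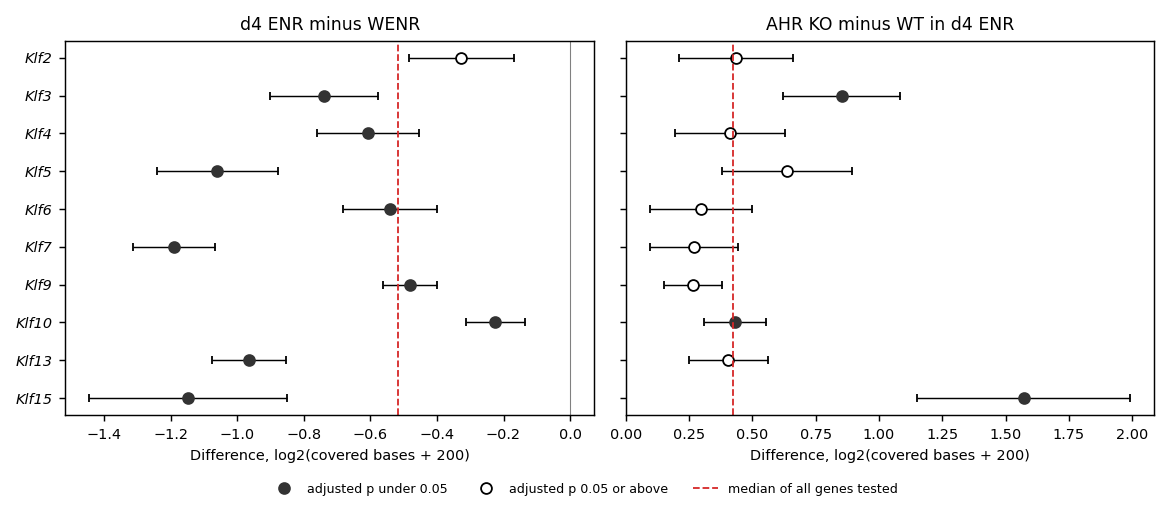
Fitted differences in log2(covered bases + 200) with SE for d4 ENR against WENR (left) and AHR KO against WT in d4 ENR (right), with filled points for genes past an adjusted p of 0.05. The dashed line is the median of all 18477 genes, -0.52 on the left and 0.42 on the right, and *Klf10* lies to the right of it in the left panel and on it in the right panel.

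The second comparison asks whether organoids without AHR differed after the change of medium. In d4 ENR all 10 genes had more covered bases in AHR KO than in WT on average, and *Klf3*, *Klf10* and *Klf15* passed the test (limma). Their differences were 0.85 ± 0.23 (adjusted p = 0.0364), 0.43 ± 0.12 (adjusted p = 0.0414) and 1.57 ± 0.42 (adjusted p = 0.0351). This is 3 of 10, against a background of 22.8% of genes higher, and the median of the 10 genes (0.42) was that of all genes (0.42). Those that did not pass had differences from 0.27 ± 0.11 at *Klf9* to 0.64 ± 0.26 at *Klf5*, with adjusted p from 0.0795 to 0.239. The 2 genotypes did not overlap, with AHR KO higher, at 6 of 10 genes (*Klf3*, *Klf5*, *Klf9*, *Klf10*, *Klf13*, *Klf15*), where the background is 59.5% of genes, and with 2 against 3 libraries the exact permutation test cannot go below p = 0.2.

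The calls between genotypes changed when libraries were centred and when single libraries were left out. With libraries centred on the median gene none of the 10 passed, and the difference became -0.02 at *Klf2*, -0.05 at *Klf4* and *Klf13*, -0.16 at *Klf6*, -0.19 at *Klf7* and *Klf9* and -0.03 at *Klf10*. None passed when any 1 of the 5 WENR libraries, WT d4 ENR 2 or either AHR KO d4 ENR library was left out. Without WT d4 ENR 1 only *Klf3* passed, against 17.8% of all genes, and without WT d4 ENR 3 all 10 did, against 62.0%. The share of coverage in peaks was lower in WT d4 ENR than in AHR KO d4 ENR, and its part in these differences was not tested beyond the centring.

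The *Klf15* difference is one of the length of the peak at the start site (chr6:90461967-90463868). That peak covered 299, 179 and 974 bp in WT d4 ENR and 1422 and 1551 bp in AHR KO d4 ENR. Its pileup, the mean number of fragments over the peak, was alike, at 0.423, 0.544 and 0.520 per 1000000 fragments in WT and 0.433 and 0.581 in AHR KO. Each list was also cut to its 33433 strongest peaks, the length of the shortest list, that of WT d4 ENR 1. Neither AHR KO d4 ENR library then kept a peak at *Klf15* and all 3 WT libraries did. The difference turned to -1.60 ± 0.40 (limma adjusted p = 0.0323). WT d4 ENR 1 could lose no peak by this cut, whereas the other WT d4 ENR lists had held 47898 and 54768 peaks and the AHR KO d4 ENR lists 49339 and 58359. The result at *Klf15* was thus fixed in part beforehand. *Klf3* kept its direction with lists of equal length (0.66, adjusted p = 0.0296).

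In WENR none of the 10 genes passed between genotypes (limma), against a background of 0.0649% of genes called in either direction. Nor did any have an unadjusted p under 0.05, against 442 of all 18477 genes. The differences of AHR KO minus WT ranged from -0.27 ± 0.20 at *Klf6* to 0.10 ± 0.42 at *Klf15*. The change of the genotype difference between media was above 0 at all 10 genes, from 0.31 ± 0.25 at *Klf7* to 1.48 ± 0.59 at *Klf15*, and none passed (adjusted p 0.175 to 0.386), against a background of 0.455% of genes. Unadjusted p was under 0.05 at 4 genes, against 4483 of all 18477, and without WT d4 ENR 3 the adjusted p passed at 8, against 36.1% of all genes.

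The other 16 genes of the KLF and SP family that were tested are given beside the members. In d4 ENR 11 of the 16 fell and 1 rose, against 70.7% and 1.22% of all genes. Their median difference was -0.51, against -0.52 over all genes. *Klf8* had 295 to 844 bp in the WENR libraries and no peak in any d4 ENR library. *Klf17*, the gene that rose, had peaks in the 2 AHR KO d4 ENR libraries (748 and 674 bp) and in no other library. Higher coverage in AHR KO d4 ENR passed for 7 of the 16, against 22.8% of all genes, and lower for none. None passed in WENR, against 0.0649% of all genes. *Klf11*, whose protein also recruits SIN3A and is the closest relative of KLF10, had 1856 to 1955 bp in WT d4 ENR and 3683 and 3752 bp in AHR KO d4 ENR (difference 0.90 ± 0.12, limma adjusted p = 0.00561), and 2983 to 3735 bp in WENR. It was named after its values were seen.

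Single sites were then compared. Of the 81 sites, 38 (46.9%) were called in all 10 libraries, against a background of 32.9% of all sites. Every WENR library called 60 sites, and 22 of those were missing from at least 1 d4 ENR library. Every d4 ENR library called 39, of which 1, the *Klf6* site 19.9 kb upstream, was missing from a WENR library. Shares of all sites for these counts are not given here, so the counts cannot be read as particular to the *Klf* genes. Libraries called 63 to 68 of the 81 sites in WENR, 40, 51 and 56 in WT d4 ENR and 54 and 61 in AHR KO d4 ENR. Of all sites they called 70.9% to 75.7% in WENR, 37.8%, 52.5% and 60.8% in WT d4 ENR and 56.4% and 66.0% in AHR KO d4 ENR.

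**Figure D3:**
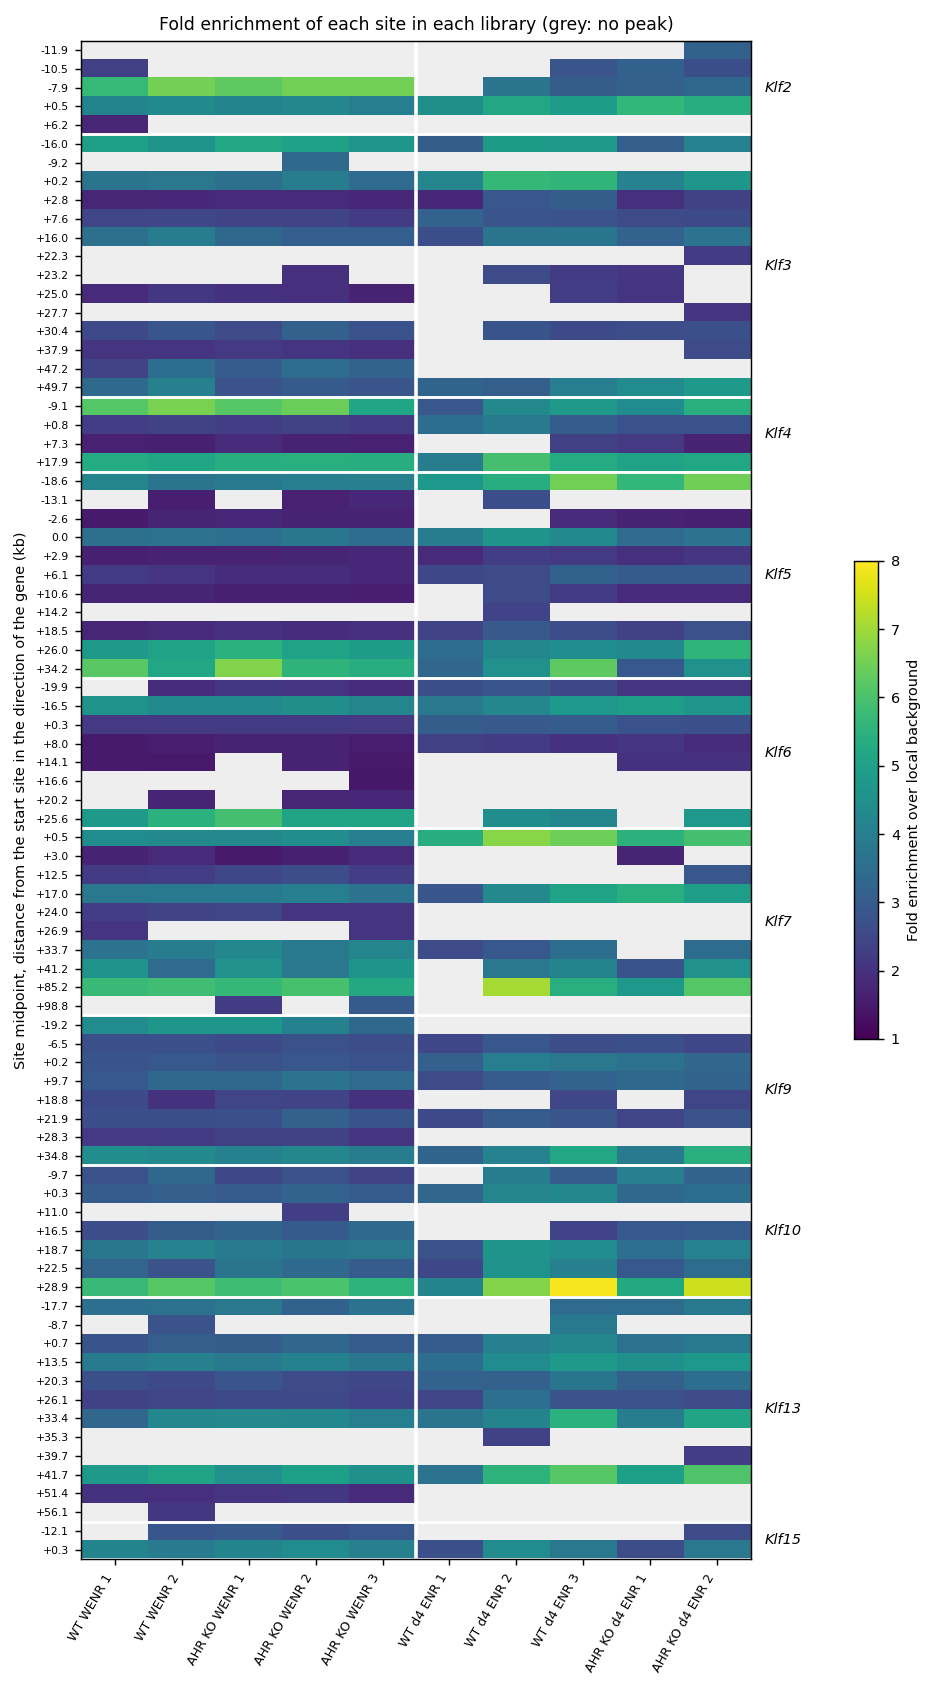
Fold enrichment of each of the 81 sites (rows, by gene and by distance of the site's midpoint from the transcription start in kb, positive in the direction of transcription) in each of the 10 libraries (columns), with no peak in grey. The 5 sites filled in all WENR columns and grey in all d4 ENR columns are at *Klf3* +47.2, *Klf7* +24.0, *Klf9* -19.2 and +28.3 and *Klf13* +51.4.

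Called in WENR only were 5 sites (6.17%, background 5.46%). With lists of equal length the count was 0, and with peaks of −log10 q of at least 5 it was 9, with no share of all sites given beside them. At *Klf9* 1 lay 19.2 kb upstream (chr19:23121703-23122318), with a fold enrichment over the local background of 4.39 and 4.69 in WT WENR and 4.67, 4.08 and 3.33 in AHR KO WENR. The second *Klf9* site lay 28.3 kb from the start, just downstream of the gene (chr19:23168556-23170458), with values from 2.06 to 2.39. The *Klf7* site lay in an intron (chr1:64097694-64098855, 2.07 to 2.46) and the *Klf3* site downstream of the gene (chr5:64849883-64851285, 2.43 to 3.54). The *Klf13* site lay over the last exon (chr7:63884132-63890798) and covered 4320 and 4009 bp in WT WENR and 2840, 1586 and 3462 bp in AHR KO WENR, at 1.86 to 2.13. Except at the upstream *Klf9* site these were modest enrichments. No site was called in d4 ENR only.

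Between genotypes, 1 site (1.23%, background 2.84%) was called in both AHR KO and in no WT library of d4 ENR. It lay downstream of *Klf6*, 14.1 kb from its start (chr13:5874083-5876990), with a fold enrichment of 1.99 in both AHR KO d4 ENR libraries. It was also called in both WT WENR (1.49 and 1.48) and in 2 of 3 AHR KO WENR libraries (1.69 and 1.47). Its enrichment was low everywhere. No site was called in WT only in d4 ENR, in AHR KO only in WENR or in WT only in WENR. The count of 1 became 6 without WT d4 ENR 3, 8 without AHR KO d4 ENR 1 and 2 without AHR KO d4 ENR 2. The counts of 0 became at most 2 without 1 library. Shares of all sites with libraries left out are not given here, so these counts cannot be set against them.

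At *Klf2* the strongest site, 7.9 kb upstream (chr8:72310728-72311532), was called in 9 libraries and covered 705 to 789 bp in WENR. Its fold enrichment was 5.70 and 6.55 in WT WENR and 6.26, 6.52 and 6.51 in AHR KO WENR. It had no peak in WT d4 ENR 1, and 3.69 and 3.05 in the other 2 WT and 3.16 and 3.35 in the AHR KO d4 ENR libraries. The media did not overlap where a peak was called, and the genotypes did in d4 ENR. The start site of *Klf2* had 4.01 to 4.32 in WENR and 4.48 to 5.63 in d4 ENR, a difference of 0.30 ± 0.11 in log2 that did not pass (limma adjusted p = 0.0647). *Gm10282* is the coding gene with its start nearest to the upstream site.

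Fold enrichment at the 38 sites called in every library was tested with limma over all 28205 such sites. It rose in d4 ENR at 12 of the 38 (31.6%), against a background of 7.08%, and fell at 2 (5.26%), against 11.7%. With libraries centred on their median site 22 rose and 3 fell, against 31.6% and 17.9% of all sites. The count of 14 was 8 without WT WENR 1, 7 without WT WENR 2 and 24 without WT d4 ENR 1. The 5 with the smallest p all rose. They were *Klf5* 18.5 kb (chr14:99315209-99319191, 0.49 ± 0.07) and 6.1 kb from the start (chr14:99304046-99305635, 0.52 ± 0.07), *Klf6* 8.0 kb from the start (chr13:5866222-5872683, 0.38 ± 0.06), the *Klf6* start site (0.40 ± 0.07) and the *Klf4* start site (0.43 ± 0.08), with adjusted p from 0.000235 to 0.00142. At the *Klf6* start the fold enrichment was 2.17 and 2.19 in WT WENR, 2.19, 2.18 and 2.17 in AHR KO WENR, 3.05, 2.97 and 3.04 in WT d4 ENR and 2.77 and 2.72 in AHR KO d4 ENR. At the *Klf4* start it was 2.27 and 2.36 in WT WENR, 2.26, 2.35 and 2.22 in AHR KO WENR, 3.52, 3.87 and 3.04 in WT d4 ENR and 2.76 in both AHR KO d4 ENR libraries. Neither overlapped between media.

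Start sites of *Klf3* (0.36 ± 0.12), *Klf7* (0.47 ± 0.12) and *Klf9* (0.32 ± 0.09) also rose, which makes 5 of 10 start sites. The share of all start sites that rose was not counted, so these 5 cannot be set against it. The start site of *Klf15* had a difference of -0.29 ± 0.13 that did not pass (limma adjusted p = 0.135). The 2 sites that fell lay 1 each at *Klf4* and *Klf5*. The first was the *Klf4* site 9.1 kb upstream (chr4:55540881-55542328), named after its values were seen. It had 6.17 and 6.60 in WT WENR and 6.18, 6.42 and 5.14 in AHR KO WENR, and 2.89, 4.29 and 4.77 in WT and 4.41 and 5.43 in AHR KO d4 ENR, a difference of -0.49 ± 0.15 (limma adjusted p = 0.026). The media overlapped in 1 library.

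Of the sites with the highest enrichment, the strongest was at *Klf10*, 28.9 kb from the start and beyond the end of the gene (chr15:38271072-38272594), with a mean fold enrichment of 6.08. It had 5.54 to 6.18 in WENR, 4.13, 6.71 and 7.90 in WT d4 ENR and 5.26 and 7.47 in AHR KO d4 ENR, and the difference between media did not pass (0.07 ± 0.17 in log2, limma adjusted p = 0.828). Of the strongest site of each gene among those called in all libraries, 3 of 10 passed for the medium. Among all sites called in every library, not picked by strength, 18.8% passed. The 3 were lower at *Klf4* and *Klf5* and higher at the *Klf7* start site (mean 5.14, limma adjusted p = 0.011). Among the 7 that did not pass were the *Klf3* site 16.0 kb upstream (4.43), the *Klf9* site 34.8 kb from the start (4.28), the *Klf13* site 41.7 kb into the gene (5.02) and the *Klf6* site 16.5 kb upstream (4.43). The *Klf7* site 85.2 kb into the gene reached 5.75 on average but had no peak in WT d4 ENR 1.

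No difference in fold enrichment between genotypes passed at the 38 sites, nor at any of the 28205 sites (limma). Without WT d4 ENR 1, 1 of the 38 passed in d4 ENR, against 3.84% of all sites. In d4 ENR 2 of the 38 had an unadjusted p under 0.05 and in WENR 1, and 1 for the change between media, against 2480, 248 and 1069 of all 28205 sites. By pileup scaled to depth 27 of the 38 were higher in AHR KO d4 ENR (limma), against 73.1% of all sites. The site with the smallest p in that last test, named after its values were seen, 49.7 kb from the start of *Klf3* (chr5:64852447-64853748), had differences of 0.41 ± 0.14 in d4 ENR and -0.37 ± 0.14 in WENR (limma adjusted p = 0.904 for the change).

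Pileup and fold enrichment differed in direction at 27 of the 38 sites. Scaled to 1000000 fragments, it was lower in d4 ENR at all 38 sites and 36 passed (limma, against 90.9% of all sites called lower), with differences from -2.16 to -0.05 and a median of -1.33, against -1.13 over all 28205 sites. At the *Klf10* start site the pileup per 1000000 fragments was 12.5 and 12.5 in WT WENR, 11.9, 15.1 and 12.8 in AHR KO WENR, 4.73, 5.31 and 5.78 in WT d4 ENR and 6.56 and 8.17 in AHR KO d4 ENR, while its fold enrichment was 3.00 to 3.20 in WENR and 3.30 to 4.27 in d4 ENR. At the *Klf4* start site it was 6.91 to 7.83 in WENR, 3.06, 2.81 and 2.48 in WT d4 ENR and 3.49 and 3.87 in AHR KO d4 ENR. The 2 that did not pass were *Klf10* sites 18.7 kb (-0.38) and 22.5 kb (-0.05) from the start. Fold enrichment is the pileup over a background taken near the peak within that library, whereas scaled pileup has no such divisor, and neither gives an absolute level.

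**Figure D4:**
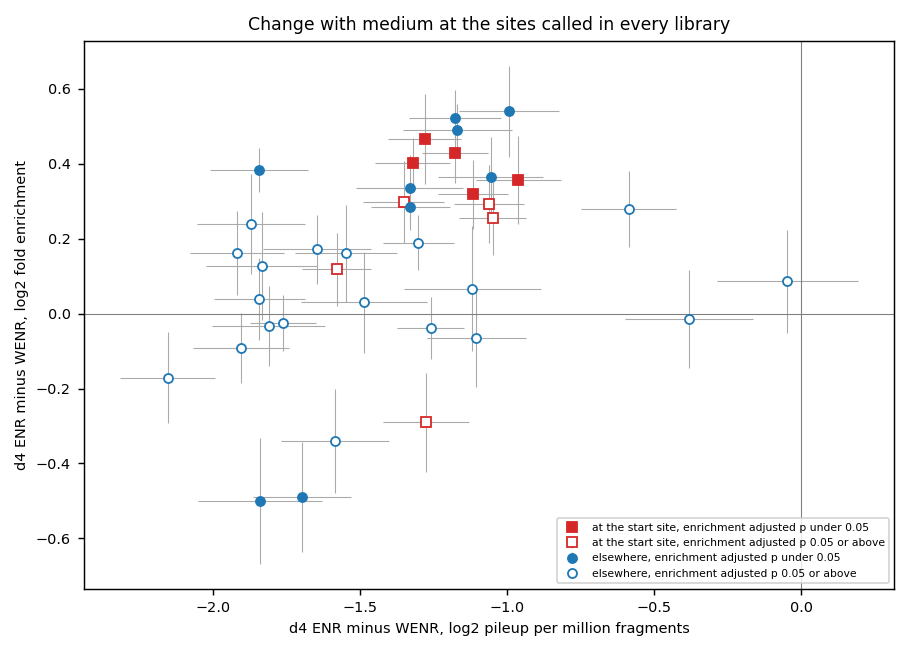
Difference between d4 ENR and WENR in log2 fold enrichment (vertical) and in log2 pileup per 1000000 fragments (horizontal) at the 38 sites called in all libraries, with SE bars, squares for start sites and filled symbols for an adjusted p of fold enrichment under 0.05. All 38 lie left of 0 in pileup, and 27 lie above 0 in fold enrichment.

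The genes whose covered bases varied most like those of *Klf5* over the 10 libraries, after centring on the median gene, were *Fgd4*, *Akap13* and *Fam189a2* (Pearson r = 0.99 each). Those most like *Klf4* were *Rpl31* (r = 0.86), *Tas1r3* (r = 0.86) and *Pias4* (r = 0.84). The 10 points fall into 2 media, so a gene that differs by medium alone gives a high value.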

How the data were processed

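Omni-ATAC-seq libraries of mouse colon organoids were analysed as peak lists. The 10 *Klf* genes, the gene lists, the motifs and the tests were chosen with earlier results of these data known.

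The authors trimmed and aligned the reads to GRCm38 with BWA (nf-core/atacseq). MACS 2.2.7.1 was then run on every library separately, without pooling or a control, for broad peaks at a q value of 0.1 (broad) and 0.05 (narrow), with a background window of 10000 bp. For each peak the authors deposited the pileup (a coverage signal in fragments, not scaled for depth), the fold enrichment over the local background, and −log10 of the p-value and q-value. Depth was 30354729 to 49126792 fragments, as per the file headers. The study's DESeq2 test needs read counts per peak, which are not analysed here, and intervals from counts were not given.

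Peaks sharing at least 1 bp were merged over libraries into 85680 sites. Bases covered by peaks were counted over each protein-coding gene of GENCODE M21 with 20 kb on each side, and fold enrichment and pileup were averaged over a library's peaks in a site, weighted by width. A promoter ran from 1000 bp upstream to 100 bp downstream of a start. limma 3.58.1 (R 4.3.3, eBayes with trend) was fitted to log2(covered bases + 200) of 18477 genes and to log2 fold enrichment of 28205 sites, with 4 groups and Benjamini-Hochberg adjustment. The threshold was an adjusted p of 0.05. A log2 difference with this pseudocount understates changes at genes with few covered bases. Single values were compared by exact permutation over libraries (2-sided, 100 arrangements between media, smallest p 0.02, and 10 within 1 medium, smallest p 0.2). Patterns of presence were counted without a test. The fits were tested on simulated data. Named were all 10 genes, their start sites and strongest sites (except 1 site, whose sequence and values are not reported here), every site with a pattern of presence, the 5 sites of smallest p per comparison past the threshold, and the 3 genes most like *Klf4* and *Klf5*. Replicate numbers are in the labels, but deviations of libraries with the same number correlated at -0.05 to -0.01, so they were not paired. Chromosome lengths of the reference held all peaks, and the 8 promoter sequences matched it. Python 3.11.15, numpy 2.4.6, pandas 2.3.3, scipy 1.17.1 and matplotlib 3.10.9 were used. Alternatives were other windows (5 kb, 50 kb or the gene alone), peaks with −log10 q of at least 5, lists cut to 33433 peaks, pseudocounts of 50 and 1000 bp, genes with a mean of at least 1000 bp, centring, array weights, a replicate block and each library left out.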

Additional observations from a re-analysis of the deposited data

Results flagged for a closer look

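*Klf17*, which is not among the 10 genes, differed between media in its genotype difference by the test of that change itself, at 2.19 ± 0.32 on the log2(covered bases + 200) scale (limma adjusted p = 0.0347). It had 748 and 674 bp of peaks in the 2 AHR KO d4 ENR libraries and none in the other 8, so the fitted value depends on the 200 bp added and is no measured fold.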

How the results depend on the processing

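Peak lists carry no read counts per site, and covered bases and presence can move with how much each library yielded. With 2 or 3 libraries a group, calls between genotypes in d4 ENR were few and moved with single libraries.

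Of the 10 genes, the count that passed between media (9, all lower in d4 ENR) was 5 over the gene body alone, all lower. With centred libraries it was 4, of which 3 were lower and 1, *Klf10*, was higher in d4 ENR. With each library left out this count was 8 to 10, all lower, and it was 8 to 10, all lower, under the other settings run. The count higher in AHR KO in d4 ENR (3) was 1 with 5 kb on each side, against 14.7% of all genes. It was 0 over the gene body alone (9.31% of all genes) and with centring (1.19%). By exact permutation no gene could pass, as the smallest p within 1 medium is 0.2, so that count of 0 was fixed beforehand. With array weights it was 7 (59.8%). With lists of equal length 1 was higher and 1 lower (19.8% and 0.186%). With each library left out the count higher was 0 to 10 (1.94% to 61.8%). The genotype change between media (0) was 7 with array weights, against 47.95% of all genes. With each library left out it was 0 to 8, against 0.0595% to 36.1%. With a replicate block the count higher in AHR KO in d4 ENR was 8, against 48.8% of all genes. No other count over genes or sites moved by over 1.5 times with this block. The cause of these moves was not tested.

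Centring turned the direction of *Klf2* (0.222), *Klf6* (0.00893), *Klf9* (0.0670) and *Klf10* (0.325) between media, and of *Klf2* (-0.0223), *Klf4* (-0.0458), *Klf6* (-0.161), *Klf7* (-0.189), *Klf9* (-0.193), *Klf10* (-0.0272) and *Klf13* (-0.0530) between genotypes in d4 ENR. *Klf10* also turned between media over the gene body alone (0.00814) and with lists of equal length (0.0810), and between genotypes over the gene body alone (-0.0114). *Klf2* turned between genotypes with 5 kb on each side (-0.0820), over the gene body alone (-0.130), with peaks of −log10 q of at least 5 (-0.0820) and with lists of equal length (-0.130), and *Klf15* with lists of equal length (-1.60).

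Of the 38 sites, the count for the medium (14, against 18.8% of all sites) was 36 by pileup per 1000000 fragments (91.9%) and 25 with centring (49.6%). With peaks of −log10 q of at least 5 it was 9 of 18 (13.45%). It was 24 with array weights (43.8%) and 0 by exact permutation, where no site passed. With each library left out it was 7 to 24 (8.81% to 43.9%). By pileup the start sites of *Klf2* (-1.35), *Klf3* (-0.96), *Klf4* (-1.18), *Klf5* (-1.58), *Klf6* (-1.32), *Klf7* (-1.28), *Klf9* (-1.12), *Klf10* (-1.05) and *Klf13* (-1.06) and the sites of *Klf5* at 6.1 kb (-1.18) and 18.5 kb (-1.17) and *Klf6* at 8.0 kb (-1.85) were lower in d4 ENR where fold enrichment was higher. Between genotypes in d4 ENR the count (0) was 27 by pileup (73.1% of all sites) and 2 with centring (5.035%). With each library left out it was 0 to 1 (0% to 3.84%). The change between media (0) was 7 by pileup (17.1%).

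The WENR-only count (5) was 9 with peaks of −log10 q of at least 5, 0 with lists of equal length, 3 within 5 kb and 5 to 7 with each library left out. The count in AHR KO only in d4 ENR (1) was 0 with lists of equal length, 3 where at least 50% of the site had to be covered and 1 to 8 with each library left out. WT only in d4 ENR (0) was 1 with lists of equal length and 0 to 1 with each library left out. AHR KO only in WENR (0) was 1 and WT only in WENR (0) was 1 with peaks of −log10 q of at least 5, the latter also 1 with lists of equal length, and each was 0 to 2 with each library left out. Sites called in all 10 libraries (38) were 18 with peaks of −log10 q of at least 5, 25 with lists of equal length and 15 where at least 50% had to be covered. Shares of all sites under these settings are not given here, so these counts of presence cannot be set against them.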
